A study of Mus musculus with 12 samples.

Results

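The genes described here encode 10 reported ligands of integrin alpha9beta1: Vcam1, Spp1, Tnc, Fn1, Thbs1, Adam8, Adam9, Adam15, Tgm2 and Emilin1. They were taken by gene symbol from a table of 54532 mouse genes. All 10 were found, and all 10 were among the 13800 genes that passed the filter on low counts. Poly-A RNA of bone marrow-derived macrophages was sequenced in 4 groups of 3 libraries each, and every group was of male mice aged 8 weeks. The first group carried the genotype labelled Itga9-Lyz2-cKO and was exposed for 2 hours to an agent labelled Pg, at an MOI given as 1:20 (cKO Pg). The second had the same genotype without Pg (cKO control). The third was Itga9-Lyz2-cHet with Pg (cHet Pg) and the fourth Itga9-Lyz2-cHet without it (cHet control). M-CSF, which drives marrow precursors to become macrophages, was present at 50 ng/mL in all cultures. Both genotypes carry an Itga9 alteration tied by name to Lyz2, a gene active in myeloid cells whose locus is widely used to drive Cre, so cHet is not wild type. Whether replicate libraries stem from different mice or different cultures is not stated, so the p-values reflect variation between libraries that may be only technical.

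Integrin alpha9beta1 is a cell surface receptor made of the alpha9 chain, encoded by Itga9, and the widely shared beta1 chain. It ties cells to proteins of the matrix and to proteins on other cells, and it is known for its part in cell migration and in the development of lymphatic valves. Its ligands differ in kind. Osteopontin (Spp1), tenascin-C (Tnc), cellular fibronectin (Fn1), thrombospondin 1 (Thbs1) and EMILIN1 are secreted into the matrix. VCAM1 and the ADAM proteins sit in the membrane, and transglutaminase 2 (Tgm2) is an enzyme that crosslinks proteins and also acts at the cell surface. Many of these ligands are also bound by other integrins, such as alpha4beta1, alpha5beta1 and alphavbeta3.

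The sequences below are the coding stretches through which some of these ligands are known to meet alpha9beta1, shown because the receptor reads short loops rather than whole proteins. They were read from the GENCODE M21 transcripts on GRCm38, and each runs 5′ to 3′ on the coding strand with 12 bases on either side of the site. In Spp1 the capitals mark the codons of the arginine-glycine-aspartate motif and of the adjoining stretch that thrombin cleavage exposes to alpha9beta1. In Fn1 they mark the codons of the site in the extra domain A. In Adam9 and Adam15 they mark the loop of the disintegrin domain, from an arginine across 6 residues to an aspartate and on to the residue before the next cysteine.
Spp1, chr5:104439469-104439522, plus strand, exon 5: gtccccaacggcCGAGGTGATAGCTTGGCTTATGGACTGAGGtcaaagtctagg
Fn1, chr1:71603781-71603825, minus strand, exon 33: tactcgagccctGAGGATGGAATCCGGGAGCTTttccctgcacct
Adam9, chr8:24978552-24978611, minus strand, exon 14: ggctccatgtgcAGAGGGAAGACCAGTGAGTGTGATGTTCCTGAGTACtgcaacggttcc
Adam15, chr3:89343906-89343965, minus strand, exon 14: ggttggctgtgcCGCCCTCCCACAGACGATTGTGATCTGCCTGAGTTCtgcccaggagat

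The Spp1 site was present in 5 of 7 coding transcripts, the Adam9 loop in 3 of 4 and the Adam15 loop in 3 of 4. The Fn1 site was present in 4 of 9 coding transcripts. Extra domain A is known to be included or skipped by splicing, and whether the other transcripts skip it or are partial was not checked. The deposited counts are per gene, so the Fn1 values below do not tell transcripts with the site from those without it. The patterns searched were not matched in the 4 coding transcripts of Tnc or the 3 of Adam8.

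Library totals lay between 14527674 and 16793803 counts. The scaling factors of the Pg libraries, 0.906 to 0.931, were all below those of the controls, 1.07 to 1.11. The 8 macrophage markers examined were detected in every group. Their summed level was 10362 to 12149 CPM (counts scaled to library size by TMM) in cKO Pg, 8419 to 9631 in cKO control, 9928 to 11667 in cHet Pg and 8470 to 9679 in cHet control. In each group 1 library stood apart from the other 2: cKO Pg 3, cKO control 1, cHet Pg 1 and cHet control 1. The chi-square per gene between these and the other libraries of their group was 12.8 to 17.2, against 2.59 to 5.31 between the others. Itgax, an integrin chain of dendritic cells and some macrophages, was at 103, 121 and 48.0 CPM in cKO Pg libraries 1 to 3, at 125, 42.4 and 45.1 CPM in cKO control, at 59.3, 137 and 132 CPM in cHet Pg and at 115, 37.0 and 36.2 CPM in cHet control. The library that stood apart was thus the lowest for Itgax in each Pg group, and the highest in each control group. Calls of ligands that changed without these 4 libraries are therefore given with both values. That fit was chosen after seeing the data, it leaves 2 libraries per group, and it lowers the spread within groups by its own construction. Its Pg libraries are those with high Itgax and its controls those with low Itgax. Pg and this difference between libraries therefore cannot be told apart in it.

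Itga9 itself was at 13.6, 11.6 and 7.84 CPM in cKO Pg and 11.5, 5.98 and 6.42 CPM in cKO control, against 19.4, 34.0 and 33.4 CPM in cHet Pg and 32.3, 17.9 and 18.9 CPM in cHet control. Every cKO library was below every cHet library of the same treatment. The log2 fold change of cKO against cHet was -1.46 ± 0.26 (SE) over both treatments (edgeR quasi-likelihood test, Benjamini-Hochberg adjusted p = 0.0118). It was -1.53 ± 0.37 in controls (adjusted p = 0.0497), and -1.39 ± 0.36 under Pg, where it was not called (adjusted p = 0.125). The Itga9 counts cover the whole gene and do not show which exons were read. Lyz2 was lower in cKO too, by -0.99 ± 0.09 in controls and -0.94 ± 0.09 under Pg (adjusted p = 6.39e-06 and 1.23e-05). Itgb1, which encodes the beta1 chain, differed by 0.17 ± 0.06 in controls (adjusted p = 0.141) and by -0.02 ± 0.06 under Pg (adjusted p = 0.942).

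The ligands differed widely in level. Per kilobase of the gene length in the deposited table, the mean over the 12 libraries was 978 CPM per kb for Spp1 and 697 for Thbs1. Tgm2 followed at 231 and Adam8 at 203 CPM per kb. Adam9 stood at 44.7, Adam15 at 27.3, Emilin1 at 15.9, Vcam1 at 9.99 and Fn1 at 5.28, and Tnc was lowest at 0.367 CPM per kb. The order at the top changed with the group. In cKO Pg libraries Thbs1 averaged 1208 ± 227 CPM per kb and Spp1 891 ± 84.5, whereas in cHet Pg libraries Thbs1 averaged 983 ± 164 and Spp1 1422 ± 56.7 (SD, n = 3 each). Within either group the values of these genes did not overlap, so Thbs1 led in cKO Pg and Spp1 in cHet Pg. In controls Spp1 led in both genotypes, at 747 ± 149 CPM per kb in cKO and 852 ± 162 in cHet, with Thbs1 at 311 ± 57.3 and 287 ± 15.5. Tgm2 and Adam8 stood close together, at 280 ± 12.1 and 283 ± 3.25 CPM per kb in cHet Pg, and their values overlapped there. Together the 10 genes held 0.99% to 1.21% of all counts in the Pg libraries and 0.533% to 0.594% in the controls.

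**Figure D1:**
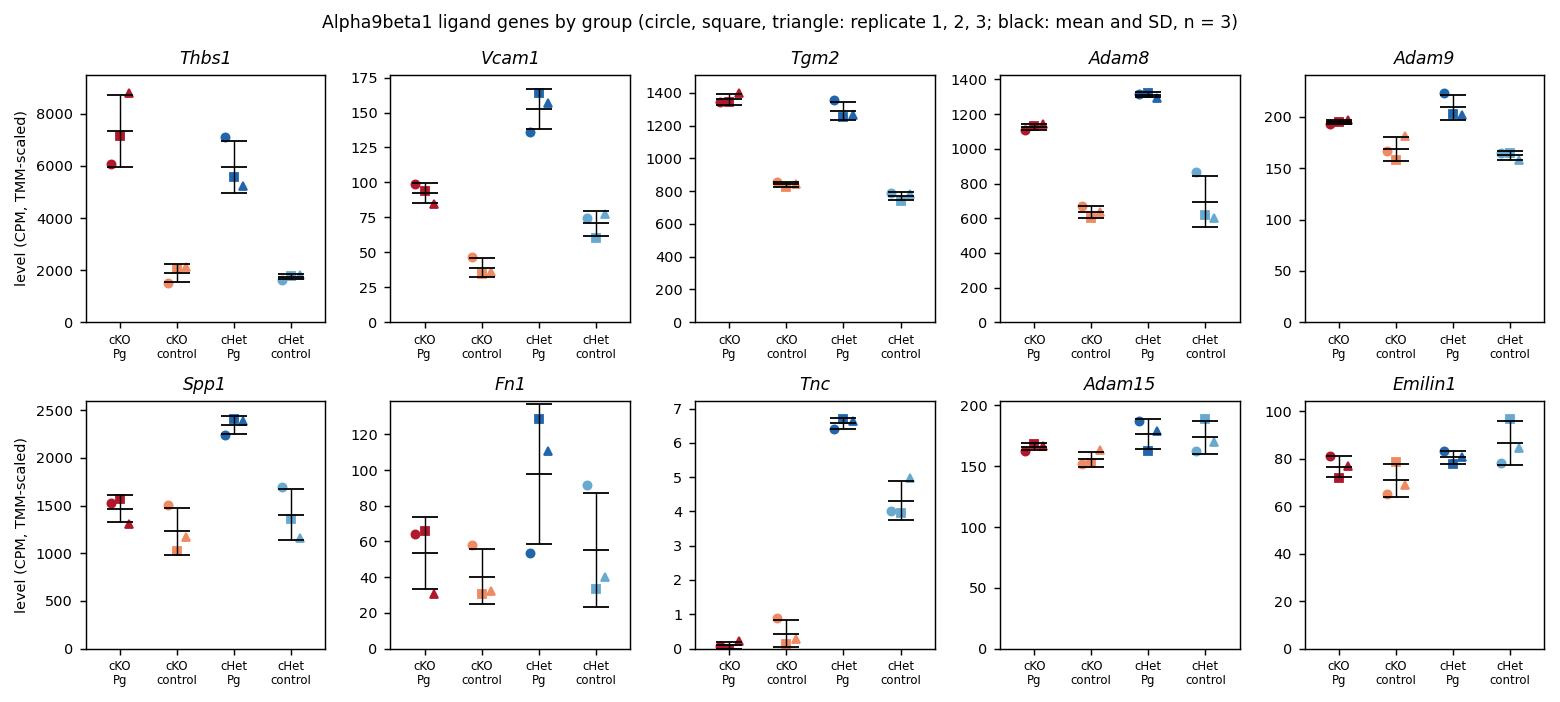
Level of each of the 10 ligand genes in CPM (TMM-scaled, linear axes from 0) in cKO Pg, cKO control, cHet Pg and cHet control libraries. Coloured points are single libraries, black horizontal marks are means and error bars are SD (n = 3 each). Thbs1, Vcam1, Tgm2 and Adam8 stand higher in Pg than in control libraries of both genotypes, while Vcam1 and Tnc stand lower in cKO than in cHet.

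Thbs1, Vcam1, Adam8, Tgm2 and Adam9 were higher with Pg in both genotypes, though Adam9 in cKO turned direction with library size alone, and Spp1 was higher in cHet. Among the 10 ligands 5 were higher and 1, Tnc, was lower in Pg than in control libraries of cKO cells. There 34% of all genes tested were called, 16.9% higher and 17.1% lower. The Tnc call rests on few reads and on a filter that Tnc passed through its cHet libraries. In cHet cells 6 ligands were higher and none lower, where 36.1% of all genes were called, 18% in each direction. The median log2 fold change of the ligands was 0.34 in cKO and 0.74 in cHet, against -0.0043 and -0.0068 over all genes tested. Calls were made at an adjusted p under 0.05 in edgeR's quasi-likelihood test over all genes. Of all calls, 49.7% in cKO and 50% in cHet were higher with Pg. Scaled by library size alone, which shifts the median log2 fold change over all genes by -0.24 in both comparisons, 18.7% and 19.1% were.

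Thbs1, a large secreted glycoprotein that regulates platelet and endothelial behaviour and activates TGF-beta, had the largest rise with Pg among the 10 ligands in both genotypes. It was at 6065, 7146 and 8805 CPM in cKO Pg against 1493, 2043 and 2137 CPM in cKO control, and at 7099, 5585 and 5224 CPM in cHet Pg against 1632, 1785 and 1804 CPM in cHet control. Each Pg library exceeded each control library by a wide margin. The log2 fold change was 1.96 ± 0.18 in cKO (SE, edgeR adjusted p = 1.68e-05) and 1.78 ± 0.18 in cHet (adjusted p = 3.16e-05). The platelet and megakaryocyte markers examined, other sources of thrombospondin 1, summed to 333 to 588 CPM in cKO Pg, 268 to 404 in cKO control, 294 to 488 in cHet Pg and 198 to 332 in cHet control. Their part in the Thbs1 values was not tested.

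Vcam1, an adhesion molecule bound by alpha4 and alpha9 integrins of leukocytes, responded to Pg and differed between genotypes. It was at 98.8, 93.7 and 84.7 CPM in cKO Pg and 46.7, 34.6 and 35.7 CPM in cKO control. In cHet it was at 136, 164 and 156 CPM with Pg and 74.9, 60.2 and 77.1 CPM without. No pair of groups that differ in treatment or in genotype alone overlapped, and the cKO Pg libraries reached above all cHet controls. The log2 fold change of Pg against control was 1.24 ± 0.12 in cKO (edgeR adjusted p = 4.74e-06) and 1.11 ± 0.12 in cHet (adjusted p = 9.75e-06), so the difference between these responses was 0.14 ± 0.17 (adjusted p = 0.825).

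Tgm2 and Adam8 rose by less than Thbs1. Tgm2 was at 1344, 1342 and 1400 CPM in cKO Pg against 857, 824 and 842 CPM in cKO control, and at 1354, 1251 and 1265 CPM in cHet Pg against 789, 742 and 782 CPM in cHet control. Its log2 fold change was 0.70 ± 0.06 in cKO (edgeR adjusted p = 5.28e-08) and 0.74 ± 0.06 in cHet (adjusted p = 2.28e-08). Tgm2 shares 15896 bases with Rprd1b on the opposite strand, and the strand setting of the counting is not given in the sources used here. Rprd1b had at most 466 counts in a library, against at least 12558 for Tgm2.

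Adam8, a membrane metalloprotease of leukocytes that sheds surface proteins, was at 1109, 1134 and 1143 CPM in cKO Pg and 671, 602 and 635 CPM in cKO control. In cHet it was at 1318, 1323 and 1294 CPM with Pg and 865, 621 and 603 CPM without, where library 1 stood above the other 2. No control library reached a Pg library. The log2 fold change was 0.83 ± 0.11 in cKO (edgeR adjusted p = 2.46e-05) and 0.91 ± 0.11 in cHet (adjusted p = 8.75e-06).

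Among the other ADAM ligands the Pg response was small or not called. Adam9, a widely expressed metalloprotease, was at 193, 195 and 197 CPM in cKO Pg against 167, 158 and 181 CPM in cKO control, and at 223, 203 and 202 CPM in cHet Pg against 165, 165 and 158 CPM in cHet control. The groups did not overlap, and its log2 fold change was 0.21 ± 0.06 in cKO (edgeR adjusted p = 0.0166) and 0.37 ± 0.06 in cHet (adjusted p = 0.000233). Both calls depended on the scaling of the libraries. With library size alone the values were -0.03 (adjusted p = 0.672) and 0.12 (adjusted p = 0.11). Without cKO control 2 the cKO call was also lost, with an adjusted p of 0.0764. Adam15, which carries an arginine-glycine-aspartate motif in its human form, lay between 152 and 189 CPM in all 12 libraries, and Emilin1, an elastic fibre glycoprotein, between 65.3 and 96.6 CPM. Adam15 differed with Pg by 0.09 ± 0.07 in cKO and 0.02 ± 0.07 in cHet, and Emilin1 by 0.11 ± 0.08 and -0.10 ± 0.08, with edgeR adjusted p of 0.346, 0.84, 0.326 and 0.38 in that order. Emilin1 with Pg in cHet was called lower with library size alone (-0.35, adjusted p = 0.00377), which also called Adam15 lower there (-0.22, adjusted p = 0.0128). In the fit without the 4 libraries that stood apart, where high Itgax goes with Pg, Emilin1 was at -0.20 in cHet (adjusted p = 0.0436).

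**Figure D2:**
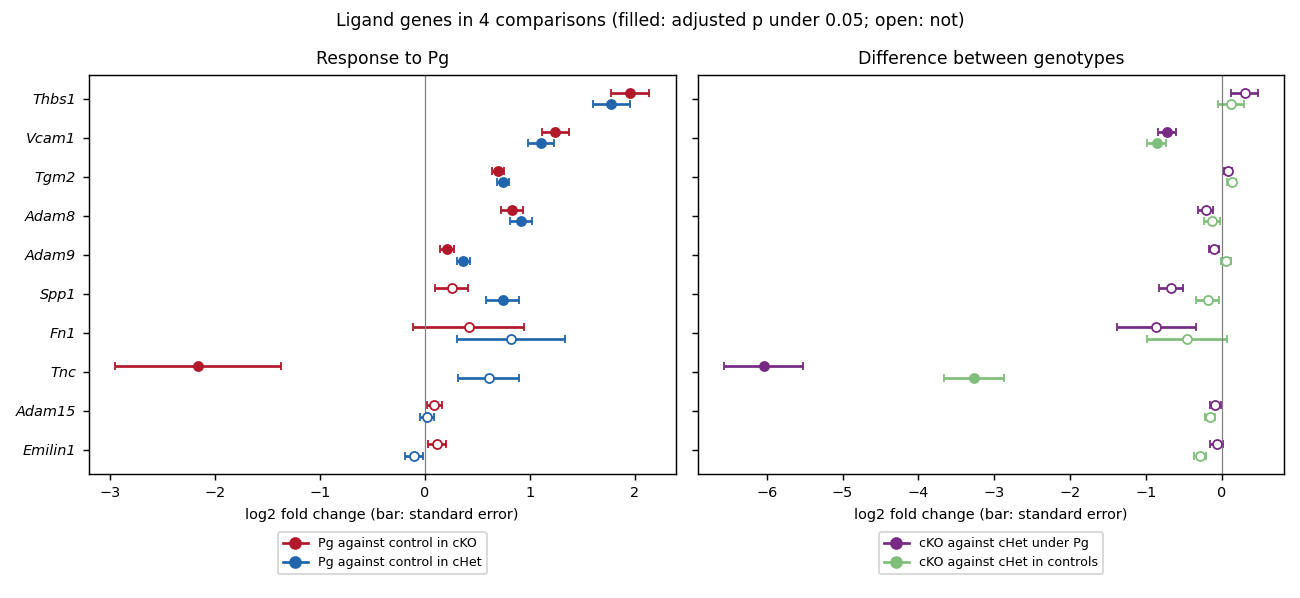
Log2 fold change of each ligand gene for Pg against control in cKO and in cHet and for cKO against cHet under Pg and in controls. Points are edgeR estimates, bars are standard errors and filled points have an adjusted p under 0.05. Thbs1 lies farthest to the right in both Pg comparisons (1.96 and 1.78), and Tnc farthest to the left in both genotype comparisons (-6.04 and -3.27).

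Spp1 encodes osteopontin, an acidic phosphoprotein that macrophages and osteoclasts secrete and that recruits leukocytes. It was at 1522, 1572 and 1310 CPM in cKO Pg and 1501, 1022 and 1169 CPM in cKO control, against 2236, 2406 and 2389 CPM in cHet Pg and 1691, 1358 and 1161 CPM in cHet control. The cHet Pg libraries stood above all other libraries, and the other 3 groups overlapped one another. The response to Pg was 0.74 ± 0.16 in cHet (edgeR adjusted p = 0.00356) and 0.25 ± 0.15 in cKO (adjusted p = 0.246). The difference between these responses was -0.49 ± 0.22, with an unadjusted p of 0.0499 that does not hold over all genes (adjusted p = 0.395). Under Pg cKO differed from cHet by -0.67 ± 0.16 (adjusted p = 0.0629), and over both treatments by -0.43 ± 0.11 (adjusted p = 0.0509). The difference under Pg was called by DESeq2 (adjusted p = 0.00017), by a fit on the compared groups only (adjusted p = 0.000599) and by the replicate block. It was not called with library size alone or without the filter on low counts. Nor was it called in any of the 6 edgeR fits that left out 1 library (adjusted p = 0.141 to 0.191). Without cKO control 1 the cKO response to Pg was called, at 0.42 (adjusted p = 0.0342). Without the 4 libraries that stood apart, it was 0.50 (adjusted p = 5.12e-06) and the difference between responses -0.42 (adjusted p = 0.0093). In that fit high Itgax goes with Pg, and Spp1 followed Itgax within groups, so the 0.50 cannot be assigned to Pg alone. Its remaining libraries also differed in Itgax between genotypes, so the -0.42 cannot be assigned to genotype alone. Gm42793 overlaps Spp1 on the same strand, with at most 185 counts in a library against at least 16402 for Spp1.

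The upstream sequences of Spp1 and Adam8 are printed here as the region next to genes called higher with Pg. Spp1 was called in cHet only, and Adam8 in both genotypes. In all, entries were found for 5 of the 10 ligands (Adam15, Adam8, Emilin1, Spp1 and Tnc). Each holds 250 bases before and 50 after an annotated start in GRCm38.p6, 5′ to 3′ on the gene's strand, and capitals mark motif matches. Both strands were searched for TATAAA, the PU.1 motif GAGGAAGT, the RUNX motif AACCACA, the AP-1 motif TGANTCA, the CRE motif TGACGTCA, the NF-kB motif and the CArG box.
Spp1, chr5:104434861-104435160, plus strand: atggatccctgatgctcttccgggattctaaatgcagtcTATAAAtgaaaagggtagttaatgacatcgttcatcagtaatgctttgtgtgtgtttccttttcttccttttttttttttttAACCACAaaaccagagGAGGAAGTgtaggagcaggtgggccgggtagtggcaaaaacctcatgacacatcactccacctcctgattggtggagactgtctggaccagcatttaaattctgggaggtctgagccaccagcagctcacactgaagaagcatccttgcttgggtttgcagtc
Adam8, chr7:139992513-139992812, minus strand: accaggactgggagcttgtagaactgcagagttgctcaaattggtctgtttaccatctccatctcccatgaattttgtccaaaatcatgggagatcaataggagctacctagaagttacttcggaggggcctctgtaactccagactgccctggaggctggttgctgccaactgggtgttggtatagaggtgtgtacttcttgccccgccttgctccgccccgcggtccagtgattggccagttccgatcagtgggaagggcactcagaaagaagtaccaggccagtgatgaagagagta

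Spp1 has a second RefSeq entry, at chr5:104435942-104436241, that held no match, and only the first is printed. This first Spp1 window held TATAAA at -211 to -206, AACCACA at -129 to -123 and GAGGAAGT at -113 to -106, counted from the start site. Of 32851 promoters of the same length, 13.6%, 5.27% and 3.2% hold these motifs. The motifs searched for do not occur in the Adam8 window. Tnc, called lower with Pg in cKO, has 2 entries that overlap, and they hold the same TATAAA, at -205 to -200 from one start and -126 to -121 from the other. TGANTCA occurs in 7.81% of the promoters, the NF-kB motif in 8.46%, TGACGTCA in 1.79% and the CArG box in 1.63%.

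Between genotypes the ligands that differed were Tnc and Vcam1, both lower in cKO. In controls 2 of the 10 ligands were called lower and none higher, where 5.15% of all genes were called, 2.13% higher and 3.02% lower. Under Pg the same count held, where 1.85% of all genes were called, 0.652% higher and 1.2% lower. Over both treatments it held again, beside 4.91% of all genes called, 2.13% higher and 2.78% lower. Tnc, among the 2 in each comparison, passed the filter on low counts through its cHet libraries, where it is high. The filter thus favours its call as lower in cKO, and Vcam1 is the only other ligand in these counts. The median log2 difference of the ligands was -0.17 in controls, -0.16 under Pg and -0.18 over both, against 0.0032, 8.63e-05 and 0.0011 over all genes.

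Tnc, the matricellular protein tenascin-C, showed the largest difference. Its raw counts were 1, 0 and 3 in cKO Pg libraries and 15, 2 and 5 in cKO control, against 91, 95 and 99 in cHet Pg and 72, 68 and 80 in cHet control. In CPM these were 0.067, 0 and 0.206 in cKO Pg and 0.893, 0.125 and 0.292 in cKO control, against 6.39, 6.69 and 6.63 in cHet Pg and 4.01, 3.96 and 4.98 in cHet control. Every cKO library thus lay far below every cHet library, and a count of 0 in cKO Pg library 2 allows a level of up to 0.213 CPM.

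The summed Tnc counts were 4 in cKO Pg against 285 in cHet Pg, a ratio of cHet over cKO of 71.4 after scaling (exact 95% interval 27.6 to 264, counting error only). In controls they were 22 in cKO against 220 in cHet, a ratio of cHet over cKO of 9.76 (6.29 to 15.9). The fitted log2 difference of cKO against cHet was -6.04 ± 0.52 under Pg (edgeR adjusted p = 1.39e-06) and -3.27 ± 0.40 in controls (adjusted p = 6.55e-05). With so few counts in cKO these estimates depend on the prior count. PCR duplicates cannot be recognised in these counts, so the intervals cover counting only.

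Within cKO, Tnc was called lower with Pg, at -2.16 ± 0.79 (edgeR adjusted p = 0.0425), although the Pg and control libraries overlap. Tnc passed the filter on low counts through its cHet libraries, and in the fit on the cKO groups alone it was not tested. The call rests on few reads: it was lost without cKO control 1 (-1.13, adjusted p = 0.317), without cKO Pg 1 (adjusted p = 0.118) and without cKO Pg 2 (adjusted p = 0.141). It was also lost without the 4 libraries that stood apart, with an adjusted p of 0.106, and with the replicate number as a block, with an adjusted p of 0.0582. Within cHet the Pg libraries lay above the controls without overlap, but the log2 fold change of 0.61 ± 0.29 was not called (adjusted p = 0.114). The difference between the responses, -2.77 ± 0.83, had an unadjusted p of 0.00403 and an adjusted p of 0.153.

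Markers of stromal cells and fibroblasts moved with genotype in the same direction as Tnc. The 12 markers summed to 6.90 to 10.4 CPM in cKO Pg and 4.55 to 5.49 CPM in cKO control, against 35.7 to 47.3 CPM in cHet Pg and 35.1 to 38.2 CPM in cHet control. Of the 7 that passed the filter, 6 were lower in cKO controls, with a median log2 difference of -3.89, beside 3.02% of all genes called lower. Under Pg 5 were lower in cKO, with a median of -3.16, beside 1.2% of all genes. Col1a1, Col1a2, Col3a1 and Bgn had few counts in cKO and passed the filter through their cHet libraries. The filter thus favours markers low in cKO in these counts and medians, while the sums of all 12 do not depend on it. Lum had no counts in any group, and Pdgfra had none in cKO control. Endothelial markers summed to 7.33 to 9.43 CPM in cKO Pg, 9.47 to 10.5 in cKO control, 12.4 to 15.9 in cHet Pg and 13.5 to 18.5 in cHet control. The macrophage markers showed a median log2 difference between genotypes of 0.01 in controls and 0.0082 under Pg. In bulk RNA fewer cells of a type and less RNA per cell cannot be told apart. The part of these markers in the Tnc and Vcam1 differences was not tested.

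**Figure D3:**
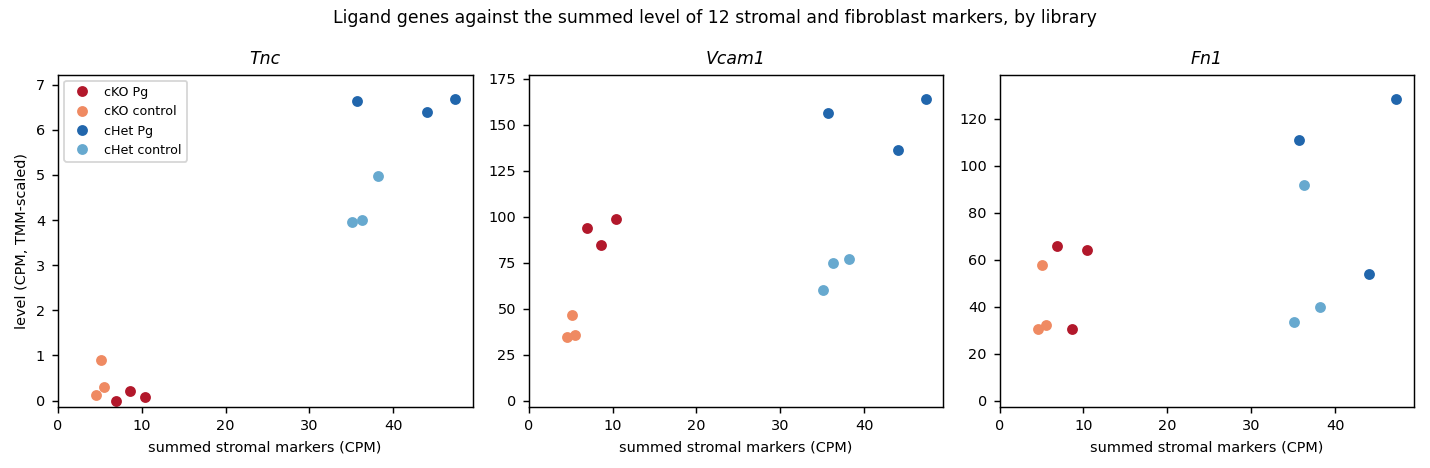
Tnc, Vcam1 and Fn1 levels (CPM, vertical axes) against the summed level of the 12 stromal and fibroblast markers (CPM, horizontal axes), 1 point per library, by group. All cKO libraries lie at or below 10.4 CPM of the markers and all cHet libraries at or above 35.1 CPM.

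The genotype difference of Vcam1 was smaller than that of Tnc and stood on many more reads, 556 to 2336 counts per library. It was -0.86 ± 0.12 in controls (edgeR adjusted p = 0.00131) and -0.72 ± 0.12 under Pg (adjusted p = 0.00533). On the linear scale cKO Pg cells held 92.4 ± 7.16 CPM and cHet Pg cells 152 ± 14.3 CPM, while cKO controls held 39.0 ± 6.69 CPM and cHet controls 70.7 ± 9.15 CPM (SD, n = 3 each). With Pg the stromal marker sums overlapped with those of controls in cHet, but in cKO they were higher in every Pg library, and Vcam1 was higher with Pg in both genotypes. The part of these markers in the Vcam1 response to Pg was not tested.

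The other 8 ligands were not called between genotypes with all 12 libraries, and several were without the 4 that stood apart. Thbs1 differed by 0.12 ± 0.17 in controls (edgeR adjusted p = 0.793) and 0.30 ± 0.17 under Pg (adjusted p = 0.563). The cKO and cHet libraries under Pg did not overlap for Adam8, which was lower in cKO, at -0.22 ± 0.10 (adjusted p = 0.425), and Tgm2 in controls was higher in every cKO library, at 0.13 ± 0.06 (adjusted p = 0.249). Adam9 under Pg also did not overlap between genotypes, at -0.10 ± 0.06 (adjusted p = 0.576). The share of all genes whose libraries separate in this way was not counted, so these separations are descriptions only. Emilin1 in controls stood at -0.29 ± 0.08 (adjusted p = 0.0555), with libraries that overlap. It was called at -0.35 without cHet control 1 (adjusted p = 0.0281) and at -0.36 without cKO control 2 (adjusted p = 0.0294).

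Without the 4 libraries that stood apart, more ligands were called between genotypes in the edgeR test, and so were more of all genes. The genes called were 1422 in controls, 771 under Pg and 1181 over both treatments, against 711, 255 and 677 with all 12 libraries. In controls Thbs1 was at 0.22 (adjusted p = 0.0119) and Emilin1 at -0.30 (adjusted p = 0.0114). Under Pg Spp1 was at -0.62 (adjusted p = 4.14e-06), Thbs1 at 0.30 (adjusted p = 0.00103), Adam8 at -0.21 (adjusted p = 0.00529) and Fn1 at -0.87 (adjusted p = 5.86e-09). Over both treatments Spp1 was at -0.41 (adjusted p = 6.66e-06), Fn1 at -0.55 (adjusted p = 1.03e-07), Thbs1 at 0.26 (adjusted p = 5.84e-05) and Tgm2 at 0.12 (adjusted p = 0.0249). In that fit the genotypes also differed in Itgax. Under Pg the remaining libraries held 103 and 121 CPM of Itgax in cKO against 137 and 132 CPM in cHet. In controls they held 42.4 and 45.1 CPM in cKO against 37.0 and 36.2 CPM in cHet. Genotype and this difference between libraries therefore cannot be told apart in that fit.

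No ligand was called in the test of whether the Pg response differs between genotypes, where 0.717% of all genes were called, 0.457% higher and 0.261% lower. Of the 10 ligands 2, Spp1 and Tnc, had an unadjusted p under 0.05 in this edgeR test, and DESeq2 called 0. The differences of response for Thbs1, Tgm2 and Adam8 were 0.18 ± 0.24, -0.05 ± 0.08 and -0.09 ± 0.15, each smaller than its standard error. A p that misses the threshold does not show that the responses are alike. Without the 4 libraries that stood apart, 3 were called: Spp1, Fn1 and Adam8, at -0.42, -0.64 and -0.23. Calls rose over all genes too in that fit, to 868 against 99 with all 12 libraries. Its remaining libraries also differed in Itgax between genotypes, so these 3 calls cannot be told apart from that difference.

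Fn1, fibronectin, varied widely within groups. It was at 64.3, 65.9 and 30.5 CPM in cKO Pg and 57.8, 30.5 and 32.0 CPM in cKO control, against 53.8, 128 and 111 CPM in cHet Pg and 91.9, 33.6 and 39.9 CPM in cHet control. All 4 groups overlapped, and the coefficient of variation within a group was 37.3% to 58.0%. The log2 fold change of Pg against control was 0.42 ± 0.53 in cKO (edgeR adjusted p = 0.608) and 0.82 ± 0.51 in cHet (adjusted p = 0.262), and cKO differed from cHet by -0.87 ± 0.52 under Pg (adjusted p = 0.588). Without the 4 libraries that stood apart these values were 1.06 (adjusted p = 2.47e-11), 1.70 (adjusted p = 1.14e-16) and -0.87 (adjusted p = 5.86e-09). In that fit the remaining Pg libraries are those with high Itgax and the remaining controls those with low Itgax, so Pg and this difference between libraries cannot be told apart there. The same holds for genotype under Pg, where the remaining cKO libraries lay below the remaining cHet libraries in Itgax.

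Within groups Fn1 and Spp1 followed the libraries' Itgax level. Fn1 was highest in the library with the highest Itgax in 4 of 4 groups, and Spp1 took the same order as Itgax over all 3 libraries in 4 of 4 groups. Emilin1 went the other way and was lowest in that library in 4 of 4 groups, and Adam15 in 3 of 4. Vcam1 followed the order of Itgax in 2 of 4 groups. Adam8 and Itga9, the receptor chain, were each highest in the library with the highest Itgax in 3 of 4 groups. These orders are descriptions of 3 libraries per group and carry no test. The share of all genes that follow or oppose Itgax in this way was not counted.

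**Figure D4:**
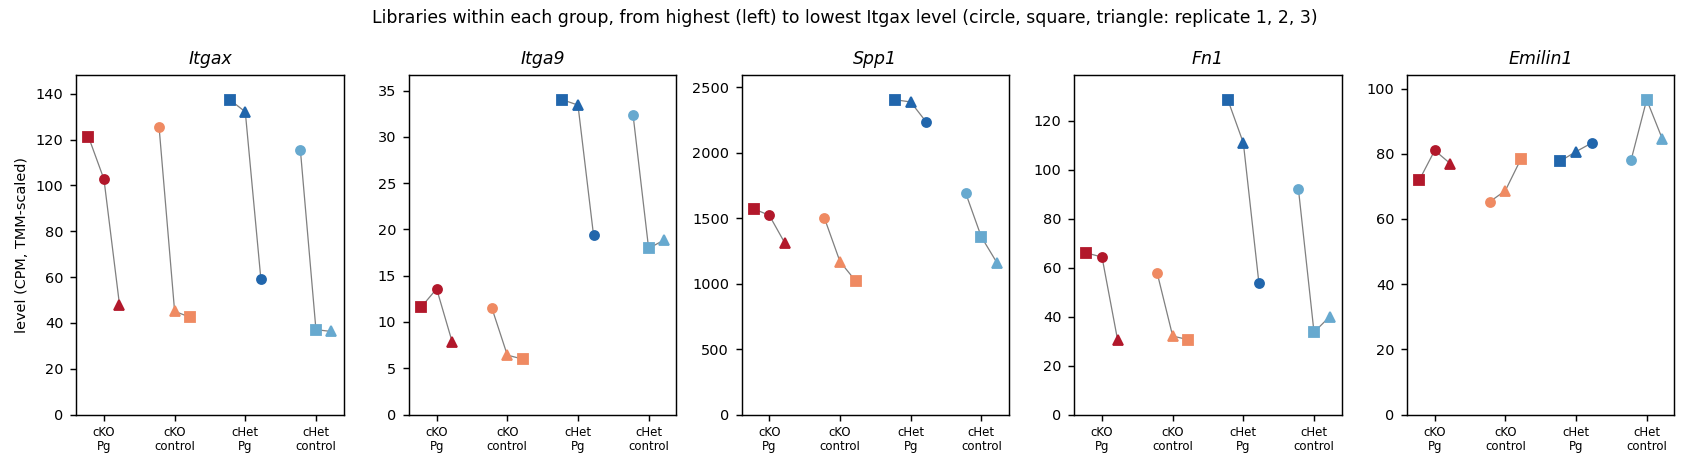
Levels of Itgax, Itga9, Spp1, Fn1 and Emilin1 (CPM, linear axes from 0) in each library, with the 3 libraries of each group placed from the highest Itgax level on the left to the lowest on the right and joined by a line. Within each group Spp1 and Fn1 are highest in the library with the highest Itgax, and Emilin1 is lowest there.

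The genes whose log2 level over the 12 libraries was most like each ligand were picked by Pearson correlation among 11003 genes whose mean log2 CPM was 1 or more (11004 for Tnc). The 12 points share treatment, genotype and the libraries that stood apart, so the values describe these libraries and carry no p. For Thbs1 the nearest were Gpr132 (0.99), Ets2 (0.99) and 1810013L24Rik (0.99), and for Adam8 Mmp19 (0.99), Micall1 (0.99) and Fam129b (0.99). Tgm2 was nearest to Tmbim1 (0.998), Ppp2ca (0.996) and Osgin2 (0.995). Cyp4f18 (0.97) and Tcirg1 (0.97) were among the nearest to Vcam1, and Spp1 was nearest to Slc7a2 (0.94), Hk3 (0.94) and Plekhn1 (0.94). Fn1 was nearest to Sdc3 (0.98), Lpl (0.97) and Rnf128 (0.97). Tnc was nearest to Gvin1 (0.97), C4b (0.96) and Hspg2 (0.96). Adam9 was nearest to Acot9 (0.98), Dctn4 and 2010111I01Rik (0.97 each), Emilin1 to Aldh7a1 (0.93), Mfsd13a (0.91) and Eri3 (0.89), and Adam15 to Blvrb (0.89), Pgpep1 (0.87) and Trpv2 (0.86).

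Some receptors that bind these ligands changed with Pg, and others were not called. The list of 19 holds integrin chains, Itga9 and Itgb1 included, and other receptors. Of these 18 were tested, and 5 rose and 2 fell with Pg in cKO, beside 34% of all genes called, while 8 rose and 2 fell in cHet, beside 36.1%. In cKO 11 were not called, so the share called there was near that of all genes, and in cHet 8 were not called. Most of the receptors named below are those with the smallest adjusted p. Itgb1 was among those that rose, by 0.26 ± 0.06 in cKO and 0.44 ± 0.06 in cHet (adjusted p = 0.00313 and 2.27e-05). Their median log2 fold change was 0.27 in cKO and 0.40 in cHet. Cd44, the hyaluronan receptor that also binds osteopontin, changed by 1.41 ± 0.07 in cKO and 1.57 ± 0.07 in cHet (edgeR adjusted p = 9.84e-11 and 2.87e-11). Itgav, the alphav chain shared by receptors for osteopontin and fibronectin, changed by 1.30 ± 0.11 and 1.54 ± 0.11 (adjusted p = 3.04e-07 and 4.45e-08). Itga5, the chain of the main fibronectin receptor, changed by 0.99 ± 0.06 and 1.00 ± 0.06 (adjusted p = 1.04e-09 and 9.65e-10), and Sdc4, a heparan sulphate co-receptor of fibronectin, by 1.17 ± 0.08 and 1.23 ± 0.08 (adjusted p = 5.25e-09 and 3.17e-09). Itga4, whose product binds VCAM1 and fibronectin, fell, by 0.45 ± 0.11 in cKO and 0.41 ± 0.11 in cHet on the log2 scale (adjusted p = 0.00537 and 0.00907). Between genotypes 1 of the 18 was called higher and 3, Itga9 included, lower in cKO controls, beside 5.15% of all genes called. Under Pg none was higher and 1, Itgad, was lower, beside 1.85% of all genes. Itgad, the alphaD chain, which also binds VCAM1, was lower in cKO by -2.11 ± 0.31 in controls and -2.62 ± 0.33 under Pg (adjusted p = 0.000492 and 0.000151). Itgad was low, at a mean of 2.35 CPM over the 12 libraries.

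Of 16 other reported ligands 4 passed the filter. Vegfa, the angiogenic growth factor, rose with Pg in cKO by 0.49 ± 0.11 (edgeR adjusted p = 0.00437) and stood at 0.29 ± 0.11 in cHet (adjusted p = 0.0644). F13a1, a subunit of coagulation factor XIII, rose in cHet by 0.20 ± 0.07 (adjusted p = 0.0436) and stood at 0.18 ± 0.07 in cKO (adjusted p = 0.0611). None of the 4 was called between genotypes within a treatment, and over both treatments Vwf, von Willebrand factor, was lower in cKO at -0.24 ± 0.07 (adjusted p = 0.0459). Among 9 tested proteases that cut or shed such ligands, 3 rose and 2 fell with Pg in cKO, beside 34% of all genes called, and 1 rose in cHet, beside 36.1%. Adamts4, an aggrecan-cutting protease, rose in both, by 2.53 ± 0.40 in cKO and 2.60 ± 0.33 in cHet (adjusted p = 9.25e-05 and 8.14e-06). Its mean level over the 12 libraries was 1.29 CPM. Mmp9, a gelatinase that cleaves osteopontin, was lower in cKO controls than in cHet controls, at -0.82 ± 0.20 (adjusted p = 0.0453), and stood at -0.83 ± 0.20 under Pg (adjusted p = 0.0811) and -0.83 ± 0.14 over both treatments (adjusted p = 0.00742).

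Of 17 tested genes of signalling below integrins 8 rose and none fell with Pg in each genotype, where 16.9% of all genes in cKO and 18% in cHet were called higher. The kinase gene Src rose with Pg in cHet by 0.84 ± 0.09 (edgeR adjusted p = 1.89e-06) and stood at 0.21 ± 0.09 in cKO (adjusted p = 0.106). Its response differed between genotypes by -0.63 ± 0.13 (adjusted p = 0.0333), and under Pg it was lower in cKO by -0.64 ± 0.09 (adjusted p = 0.000602). Of 7 tested relatives of the ligands, Icam1, the counterpart of Vcam1 for beta2 integrins, rose with Pg by 0.35 ± 0.06 in cKO and 0.27 ± 0.06 in cHet (adjusted p = 0.000281 and 0.00249). Like Vcam1 it was lower in cKO controls than in cHet controls, at -0.27 ± 0.06 (adjusted p = 0.0168), but under Pg it was not called, at -0.19 ± 0.06 (adjusted p = 0.171). Thbs2, the relative of Thbs1, was called lower in cKO under Pg, at -3.36 ± 0.77 (adjusted p = 0.0294). Its mean level over the 12 libraries was only 0.476 CPM. At so low a level it is likely to have passed the filter on low counts only through its cHet libraries, as Tnc did.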

How the data were processed

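Per the submitters' processing notes, reads were handled with fastp, HISAT2 2.0.5 and featureCounts 1.5.0-p3 on mm10; the authors deposited raw counts per gene for 12 libraries. The counts were tested as deposited with edgeR 4.0.16 in R 4.3.3: TMM scaling, filterByExpr, 1 model of 4 groups, robust quasi-likelihood F test, and Benjamini-Hochberg adjustment over 13800 genes at 0.05. All libraries shared 1 estimate of the spread. Levels are TMM-scaled CPM, and log2 CPM for correlations used a prior count of 2. DESeq2 1.42.0, library size alone, no filter, compared groups only, a replicate block and leaving out libraries were tried as alternatives. The script was tested on simulated data. The 10 ligands and the gene lists were chosen with earlier results of these data known. Named genes are all ligands, the 3 most alike genes of each (1 is not reported here), and up to 4 genes of each list by smallest adjusted p, then level. A count of 0 was taken to allow 3 counts.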

Additional observations from a re-analysis of the deposited data

How the results depend on the processing

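Of the ligands' log2 fold changes under the alternatives, 881 kept their direction and side of the threshold, 37 gained and 7 lost a call, and 14 turned direction, of which 1 was a call. The cause was not tested where none is named. Library size alone gave -0.034 for Adam9 and -0.15 for Adam15 and -0.13 for Emilin1 with Pg in cKO, and -0.22 for Adam15 in cHet (adjusted p = 0.0128). Adam15 with Pg in cHet was -0.0024 without the filter, -0.016 without cHet control 1, -0.023 without cHet Pg 1, up to 0.085 without other single libraries, and -0.072 without the 4 libraries that stood apart. Without cHet control 1 the control genotype difference was 0.13 for Fn1 (down to -0.82 without cKO control 1) and 0.063 for Adam8, which was 0.017 without the 4 libraries. Adam9 over both treatments was 0.00049 without cKO control 2, -0.051 without cKO control 3 and 0.011 without the 4 libraries, and the difference of response of Adam8 was 0.0080 without cHet control 3 and -0.28 without cHet control 1.

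Without the filter on low counts, which tests more genes, 1101 of all genes were called between genotypes in controls, 507 under Pg, 1102 over both and 389 for the difference of response, with 4 ligands over both and 1 for the difference. DESeq2 called 201 genes for the difference. Without the 4 libraries 1422, 771, 1181 and 868 genes were called in these comparisons, and 4, 6, 6 and 3 ligands. Leaving out 1 library gave 319 to 591 genes between genotypes in controls, 153 to 259 under Pg, 499 to 715 over both and 42 to 207 for the difference, and 2 to 3, 2 to 2, 2 to 3 and 0 to 0 ligands. For Pg it gave 3838 to 4460 genes and 5 to 6 ligands in cKO, and 4102 to 4689 genes and 6 to 6 ligands in cHet.

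Same-numbered libraries did not deviate together (correlation over 0.1 in 5 of 18 pairs), so the numbers are not taken to pair them. With the replicate block 4448 genes were called with Pg in cKO, 4723 in cHet, 549 between genotypes in controls, 220 under Pg, 581 over both and 70 for the difference, with 5, 6, 2, 3, 3 and 0 ligands. The block called Spp1 under Pg (adjusted p = 0.0198) and over both treatments (adjusted p = 0.0189).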
